A study of Mus musculus with 19 samples.

Results

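Fat and the lymph nodes that drain the pancreas were compared as they are in normoglycemic NOD mice, before diabetes and before any treatment. The comparison used the 6 arrays labelled normal among the 19 of the series: 2 of fat (FAT NOR) and 4 of pancreatic lymph nodes (PLN NOR). They were chosen by tissue and status in the labels, and not by any measured value. The animals were female NOD (NOD/LtJx) mice on a standard diet and light cycle, a strain that develops autoimmune diabetes. Normal status was the only condition in their labels, which give neither an age nor an added allele. The other arrays are of new onset diabetic mice (DIA) and of diabetic mice treated with alpha1 antitrypsin (AAT) or Power Mix (PM). The labels do not name the fat depot, while the methods name epididymal white fat for tissue taken in the insulin signalling experiment. That is a depot of males and these mice were female, so the depot is not settled. Mice of that experiment were fasted and injected with insulin or saline, and their tissue was also frozen for RNA. The methods do not say whether the arrays used that tissue. Neither the labels nor the methods say whether 2 arrays of a group came from separate mice. The p-values therefore measure the spread between these samples, which may be technical.

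Adipocytes store triglyceride in a large lipid droplet, make fatty acids from glucose under insulin, release them by lipolysis and secrete hormones such as adiponectin and resistin. Fat also holds capillaries, fibroblasts, mesothelium and resident macrophages. A lymph node is packed with naive T and B cells, which enter through high endothelial venules, settle along chemokines made by reticular stroma and meet antigen on dendritic cells. The pancreatic nodes of NOD mice are the site where T cells first meet islet antigens.

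Each array gives 1 signal per probe set, in arbitrary units on a linear scale. Where several probe sets name a gene, the brightest over the 6 arrays stands for it, and signals of different genes are not set against each other. The log2 change is FAT NOR minus PLN NOR, given with its standard error (SE). A gene is called where the limma p, adjusted over all 45037 probe sets (Benjamini-Hochberg), is under 0.05. The files used here hold no detection calls, so very low signals cannot be told from background and folds against them depend on it. Whole tissue was measured, in which fewer cells of a type and less RNA per cell cannot be told apart.

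Of 18193 genes, 3117 (17.1%) were higher in FAT NOR and 3091 (17%) were lower, 34.1% in all. Among probe sets, 14329 (31.8%) were called, 6478 higher (14.4%) and 7851 lower (17.4%). Without adjustment, 18590 probe sets (41.3%) reached the p of 0.05 and the 2-fold change that the study used, 19.6% higher and 21.7% lower. Changes were large: 907 called genes were at least 8-fold higher in FAT NOR and 944 at least 8-fold lower, and 114 and 120 passed 32-fold. The median change of all genes was 0.15 and its median SE 0.58. Log2 signals correlated across genes at 0.836 between the FAT NOR arrays, at 0.813 to 0.908 among the PLN NOR arrays and at 0.49 to 0.638 between tissues (Pearson, across genes, which are not independent replicates).

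**Figure D1:**
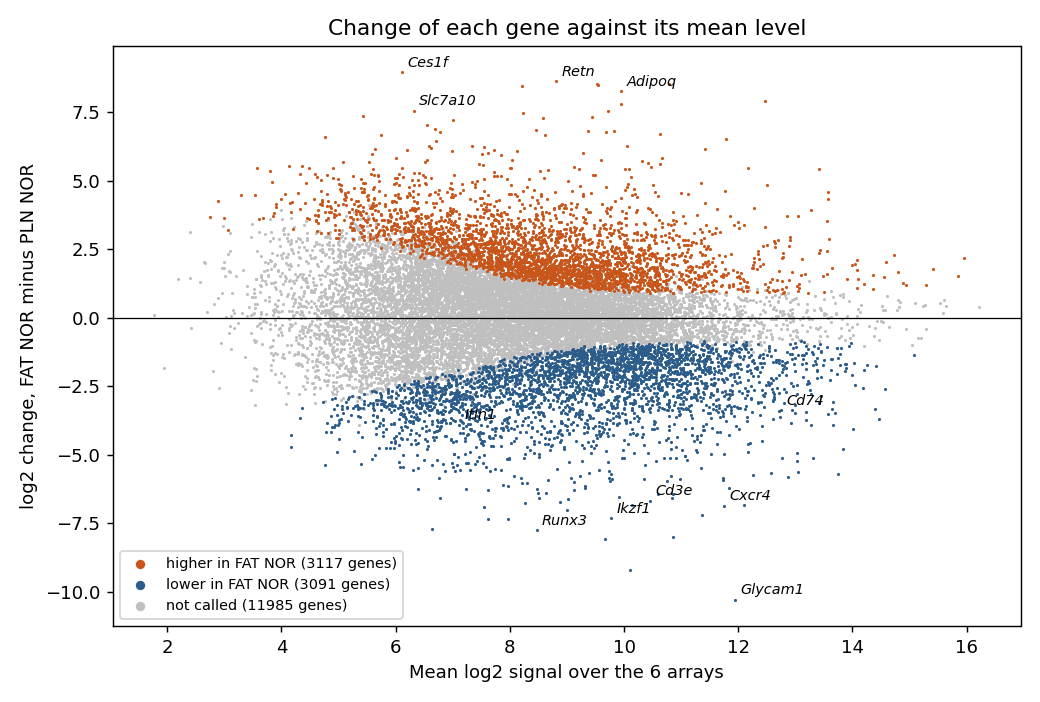
Log2 change of each of the 18193 genes (FAT NOR minus PLN NOR) against its mean log2 signal over the 6 arrays. Orange points are the 3117 genes called higher in FAT NOR, blue points the 3091 called lower and grey points the rest; Glycam1 lies lowest, at -10.29, and Ces1f highest, at 8.95.

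The arrays differed in ways other than tissue. The 3' to 5' signal ratio of the actin control was 3.63 and 4.3 on the FAT NOR arrays against 0.94 to 2.31 on the PLN NOR arrays. The ratio of the Gapdh control ran the other way, at 0.91 and 0.946 in FAT NOR against 5.55 to 8.01 in PLN NOR. With only 2 tissues, RNA quality and tissue cannot be told apart in these arrays. FAT NOR 1 and FAT NOR 2 also stood apart from each other in vascular genes, whose values are given with and without each array. Exact permutation of 2 against 4 arrays cannot go below p = 0.0667, so no such test is given for single genes.

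Genes of the fat cell were among those furthest above the lymph node. Retn, the hormone resistin, had 25458 and 22618 units in FAT NOR against 57.9, 114, 63.9 and 32.8 units in PLN NOR, a 394-fold difference (log2 change 8.62 ± 0.50 SE, adjusted p = 4.03e-07). Adipoq, which encodes adiponectin, had 41908 and 48729 units in FAT NOR against 180, 168, 61.9 and 249 units in PLN NOR (8.26 ± 0.49, adjusted p = 4.34e-07). Cidec, a protein that fuses lipid droplets, had 42142 and 33250 units in FAT NOR against 125, 99.5, 62.2 and 158 units in PLN NOR (8.47 ± 0.42, adjusted p = 1.78e-07). Both fat arrays lay far above all 4 node arrays for these 3 genes.

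The same held for Pparg, the nuclear receptor that drives fat cell differentiation. It had 2151 and 2865 units in FAT NOR and 8.64 to 43.1 units in PLN NOR (6.87 ± 0.83, adjusted p = 7.82e-05). Of 19 measured genes of adipocyte identity, 16 were called higher in FAT NOR and none lower, with a median log2 change of 5.43 against 0.15 over all genes. Plin4, a droplet coat protein (8.45 ± 1.00), Car3, a carbonic anhydrase of fat and muscle (7.91 ± 0.62), Fabp4, the fatty acid binding protein of fat (5.43 ± 0.38), and Slc2a4, the insulin-responsive glucose transporter (3.87 ± 0.59), were among them. Another probe set of Fabp4 had 247600 units on average in FAT NOR against 957.4 units in PLN NOR (7.93 ± 0.36). Lep, which encodes leptin, did not pass: it had 255 and 1299 units in FAT NOR against 379, 12.9, 21.5 and 154 units in PLN NOR, where PLN NOR 1 overlapped the lower fat array (3.18 ± 1.24, adjusted p = 0.0664).

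The summed signal of the 19 identity genes was 545300 to 751900 units in FAT NOR and 6640 to 12510 units in PLN NOR. Lpl, the lipase that frees fatty acids from lipoproteins, had 69009 and 74330 units in FAT NOR against 744, 368, 700 and 1958 units in PLN NOR (6.52 ± 0.50). The part of fat cells in the PLN NOR values was not tested.

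**Figure D2:**
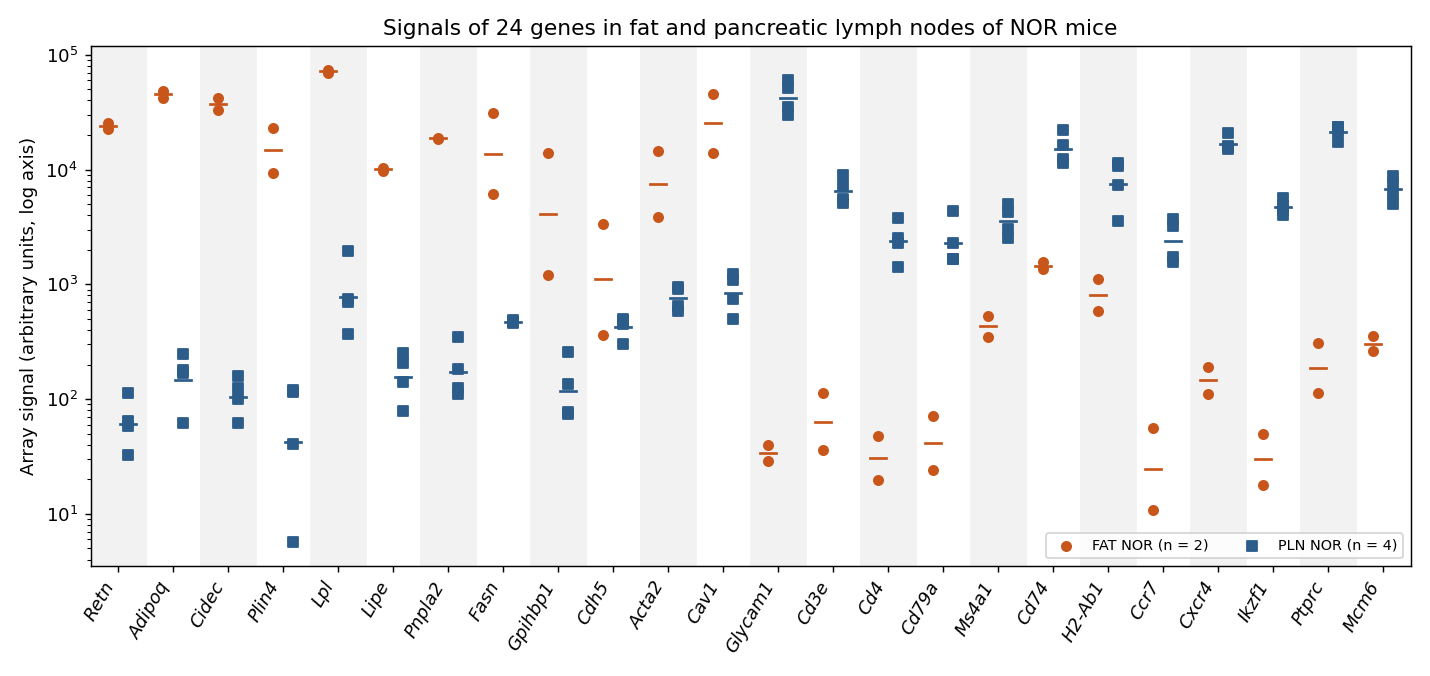
Array signal (log axis) of 24 genes in FAT NOR (orange circles, 2 arrays) and PLN NOR (blue squares, 4 arrays); horizontal bars are geometric means. Adipocyte genes at the left sit above the node arrays and lymphocyte genes at the right below them, while Cdh5, with 359 and 3384 units in FAT NOR, overlaps the PLN NOR arrays, which lie between 299.7 and 501 units.

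Genes outside the adipocyte list that led the ranking were mostly enzymes and transporters. Ces1f, a carboxylesterase, had the largest change upward, with 4432 and 4263 units in FAT NOR against 5.81, 46.4, 3.38 and 6.47 units in PLN NOR (8.95 ± 1.07, adjusted p = 7.41e-05). Cyp2e1, a cytochrome P450 that oxidises small molecules, had 129180 and 62768 units in FAT NOR and 166 to 364 units in PLN NOR (8.51 ± 0.41). Neither gene overlapped between tissues. Cdo1, cysteine dioxygenase (8.51 ± 0.47), Chpt1, which makes phosphatidylcholine (7.79 ± 0.45), Slc7a10, a neutral amino acid transporter (7.55 ± 0.79), Pcx, pyruvate carboxylase (7.48 ± 0.72), Ces1d, a lipase of the carboxylesterase family (7.33 ± 0.59), and Rbp4, the retinol carrier (7.28 ± 0.47), were also among the 15 largest. Syt11, a synaptotagmin, ranked among them on its brightest probe set (7.55 ± 0.42), but its other 4 were not called and lay between -1.25 and 0.42. Of 21 genes for retinoid and xenobiotic enzymes, 15 were higher and 2 lower, median 3.08. Aldh1a1, a retinaldehyde dehydrogenase, was higher by 6.65 ± 0.50 and Adh1, an alcohol dehydrogenase, by 3.98 ± 0.36.

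Fatty acid synthesis and triglyceride storage were higher in fat, with exceptions among shared enzymes. Fasn, fatty acid synthase, had 31130 and 6093 units in FAT NOR against 468, 462, 474 and 491 units in PLN NOR (4.86 ± 0.50, adjusted p = 2.66e-05). The 4 node arrays lay within a narrow range, and the fat arrays were apart by more than the whole node range but both above it. Thrsp, a lipogenic regulator (6.28 ± 0.53), Slc25a1, the citrate carrier (6.08 ± 0.69), Scd1, stearoyl-CoA desaturase (4.61 ± 0.32), Me1, malic enzyme (4.32 ± 0.47), and Acaca, acetyl-CoA carboxylase (3.97 ± 0.42), rose with it. In all, 12 of 19 genes of fatty acid synthesis were higher and 3 lower, median 2.32.

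The 3 lower genes serve other cells as well. Elovl5, which elongates polyunsaturated fatty acids, had 2490 and 6821 units in FAT NOR against 10627 to 15052 units in PLN NOR (-1.67 ± 0.39). Pgd, of the pentose phosphate pathway, was lower by 1.14 on the log2 scale. Acly, ATP citrate lyase, was lower on its brightest probe set (-1.18 ± 0.35) and on a second one (-1.23 ± 0.37) but called higher on 2 others (2.41 ± 0.68 and 1.12 ± 0.34), so its direction is not settled.

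Of 18 genes of triglyceride assembly and lipid droplets, 15 were higher and none lower, median 2.93. They include Dgat2, the last step of triglyceride synthesis (3.75 ± 0.43), Agpat2 (3.41 ± 0.39) and Lpin1 (3.19 ± 0.33), earlier steps of the same pathway, and Plin2, a droplet coat found in many cells (2.52 ± 0.30). Lipolysis genes were higher in 10 of 12 and lower in none, median 4.84. Pnpla2, which starts triglyceride breakdown, had 18979 and 18603 units in FAT NOR against 111, 349, 185 and 125 units in PLN NOR (6.76 ± 0.46). Lipe, hormone-sensitive lipase (6.02 ± 0.47), Mgll, which completes the hydrolysis (5.41 ± 0.48), and Abhd5, the activator of Pnpla2 (3.84 ± 0.41), followed. Fatty acid uptake and transport held 7 higher and 2 lower of 14, with Cd36, the fatty acid translocase, at 9750 and 32689 units in FAT NOR and 664 to 1188 units in PLN NOR (4.51 ± 0.45).

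Mitochondrial catabolism was higher in fat as well. All 17 measured genes of branched-chain amino acid breakdown had FAT NOR above PLN NOR without overlap, an arrangement seen in 28.8% of all genes, and 16 were called, median 2.50. Aldh6a1, a dehydrogenase of valine breakdown, had 29948 and 19041 units in FAT NOR against 328, 373, 528 and 507 units in PLN NOR (5.81 ± 0.35, adjusted p = 4.63e-07). Bckdhb, a subunit of the branched-chain keto acid dehydrogenase (4.98 ± 0.41), Ivd of leucine (3.63 ± 0.44) and Hibch of valine breakdown (3.46 ± 0.39) followed it. Fatty acid oxidation was higher in 15 of 20 and lower in 1, median 2.47, led by the acyl-CoA dehydrogenases Acads (6.27 ± 0.66) and Acadm (4.19 ± 0.33).

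The exception in fatty acid oxidation was Cpt1a, the carnitine palmitoyltransferase of liver and many other cells. It had 267 and 919 units in FAT NOR against 3047, 1951, 2492 and 3007 units in PLN NOR (-2.38 ± 0.45, adjusted p = 0.00173). Genes of the TCA cycle and pyruvate use were higher in 17 of 19, median 1.66, and subunits of oxidative phosphorylation in 16 of 26, median 1.53, with 1 and 2 lower. Pck1, which feeds glyceroneogenesis in fat, had 18205 and 24811 units in FAT NOR against 107 to 287 units in PLN NOR (6.83 ± 0.43). Probe sets disagreed for some of these genes. Sdha, of complex II, was lower on one (-0.92 ± 0.31) and higher on another (0.92 ± 0.29), Atp5a1, of the ATP synthase, was lower on 2 (-1.71 ± 0.33 and -4.59 ± 0.40) and higher on the third (1.41 ± 0.33), Ogdh of the TCA cycle was higher on its brightest (2.84 ± 0.49) and lower on a dimmer one (-4.85 ± 0.58), and Mdh1, malate dehydrogenase, was higher on 4 of 5 (2.29 ± 0.44 on the brightest) and lower on the fifth (-2.21 ± 0.70). Over all called genes with several probe sets, 481 of 3505 (13.7%) had a probe set called in the opposite direction, and 1633 (46.6%) had no other probe set called. Genes named in the text whose other probe sets were all not called were Lipe, Slc2a4, Syt11, Angptl4, Acaca, Elovl5, Insr, Akt2, Foxo1, Tbc1d1, Dcn, Nid1, Dpp4, Acta2, Abcc9, Notch3, Krt8, Epcam, Adm, Runx3, Spn, Irf4, H2-Aa, Irf8, Siglec1, Chst2, Lyve1, Tnfrsf1b, Mcm5, Mcm6, Nr1d2, Tef, Pnliprp2, Iapp and Gad1.

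Of 18 brown fat genes, 3 were higher, near the 17.1% of all genes, and 1 lower, below the 17% of all genes. Their median was 0.50. Ucp1, the uncoupling protein of brown fat, chosen after its values were seen, had 35.6 and 30.3 units in FAT NOR against 263, 68.7, 111 and 86.5 units in PLN NOR (-1.81 ± 0.87, adjusted p = 0.13). Cidea (4.64 ± 1.07) and Cox8b (3.35 ± 0.55), both known from brown fat and found also in white fat, were higher.

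Insulin signalling genes were divided. Of 20, 8 were higher and 3 lower, median 1.07, and only 4 and 5 were higher without FAT NOR 1 and without FAT NOR 2. Irs1, the main insulin receptor substrate of fat, had 2256 and 1942 units in FAT NOR against 81.7, 117, 91.3 and 147 units in PLN NOR (4.30 ± 0.49, adjusted p = 5.65e-05). Akt2, the Akt kinase of metabolic tissues, was higher by 2.72 ± 0.38 and Insr, the insulin receptor (chosen after its values were seen), by 1.33 ± 0.37. Slc2a1, the basal glucose transporter, had 382 and 2135 units in FAT NOR against 2968 to 4440 units in PLN NOR (-2.03 ± 0.53). Foxo1 (-1.13 ± 0.33) and Tbc1d1 (-1.85 ± 0.51), effectors of Akt, were lower too, each on 1 of 4 probe sets.

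Secreted products and receptors of fat went in both directions. Agt, angiotensinogen, had 1367 and 997 units in FAT NOR against 12.8, 20.5, 10.1 and 6.64 units in PLN NOR (6.66 ± 0.92), and Angptl4, an inhibitor of lipoprotein lipase, was higher by 3.96 ± 0.47. Igf1, the growth factor, was higher by 2.46 ± 0.31. Of 19 adipokines and secreted proteins, 9 were higher and 1 lower, and that was Itln1, intelectin, with 33.5 and 15.5 units in FAT NOR against 931, 128, 208 and 541 units in PLN NOR (-3.90 ± 0.86). In the list of renin-angiotensin and vasoactive genes, 8 of 14 were higher (5 and 3 without FAT NOR 1 and without FAT NOR 2), while Adm, adrenomedullin, had 546 and 562 units in FAT NOR against 10420, 13697, 10474 and 21243 units in PLN NOR (-4.59 ± 0.34, adjusted p = 2.56e-06). Esr1, the estrogen receptor (4.00 ± 0.95), and Nr1h3, the oxysterol receptor LXRalpha (2.92 ± 0.44), were higher among nuclear receptors, of which 8 of 17 were higher and 2 lower (5 higher without either fat array).

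The stroma of fat was higher in part, and the 2 fat arrays differed in it. Blood endothelial markers were called higher in 10 of 22 and lower in none, median 1.62. Gpihbp1, which carries lipoprotein lipase to the capillary surface, had 1201 and 13938 units in FAT NOR against 257, 76.8, 74.6 and 135 units in PLN NOR (5.11 ± 0.82, adjusted p = 0.000612). FAT NOR 2 was the higher array in all 22 endothelial genes, by a median log2 difference of 3.03, against -0.20 over all genes. Without FAT NOR 1, 18 of 22 were called (median 2.81), and without FAT NOR 2, 2 of 22 (median 0.23).

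Single endothelial genes showed the same split. Pecam1, an adhesion protein of endothelium and platelets, had 99 and 1736 units in FAT NOR against 426 to 1130 units in PLN NOR, so that the fat arrays lay on both sides of the node arrays (-0.71 ± 0.83, adjusted p = 0.548). Cdh5, the endothelial cadherin, likewise overlapped (1.38 ± 0.68, adjusted p = 0.139). Rgcc, which is abundant in capillary endothelium of fat, was high on both arrays, with 23416 and 37866 units in FAT NOR and 942 to 1836 units in PLN NOR (4.64 ± 0.35). Caveolar genes, shared by adipocytes and endothelium, were higher in 9 of 10, median 3.93 (7 without FAT NOR 1 and 4 without FAT NOR 2), with Cav1, the main caveolin, at 13954 and 45870 units in FAT NOR against 745, 501, 1241 and 1083 units in PLN NOR (4.91 ± 0.48).

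**Figure D3:**
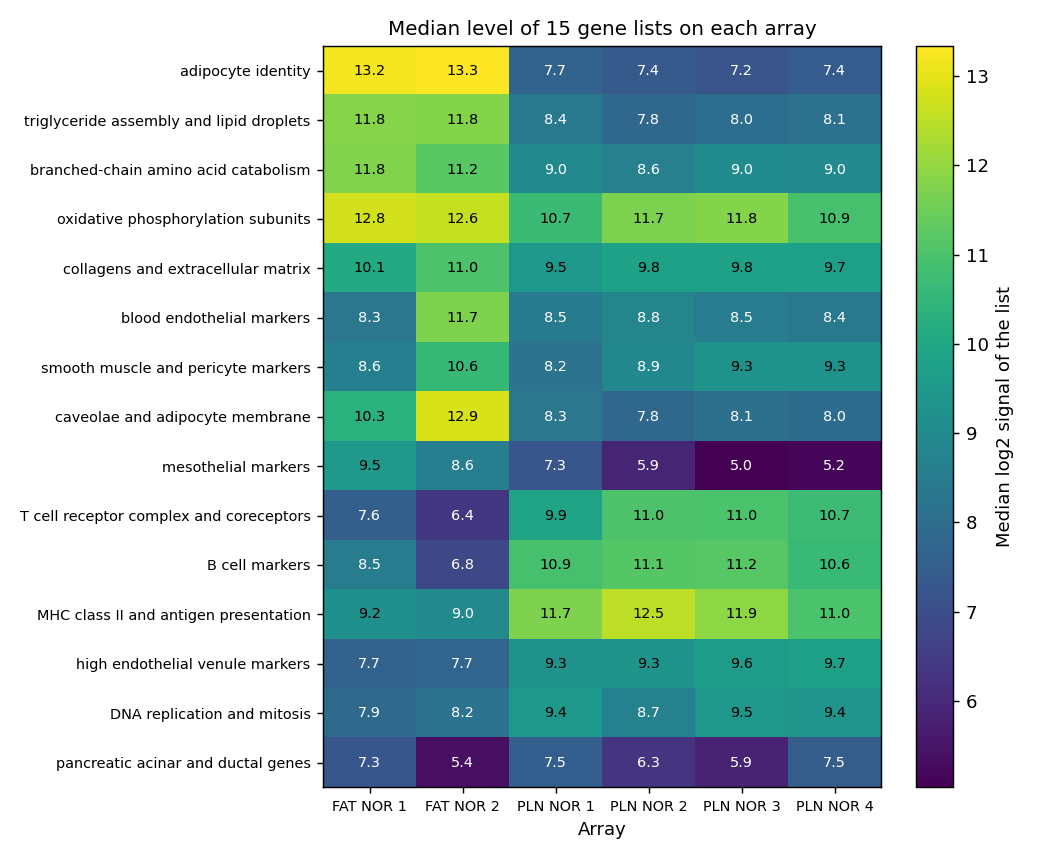
Median log2 signal of 15 gene lists (rows) on each of the 6 arrays (columns), fat at the left. Blood endothelial markers had medians of 8.3 on FAT NOR 1 and 11.7 on FAT NOR 2, against 8.4 to 8.8 on the PLN NOR arrays, while adipocyte identity genes had 13.2 and 13.3 in FAT NOR against 7.2 to 7.7 in PLN NOR.

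Smooth muscle and pericyte markers were higher in 8 of 18 and lower in 4, median 2.17, with medians of 3.20 without FAT NOR 1 and 1.14 without FAT NOR 2. Acta2, smooth muscle actin, had 3823 and 14637 units in FAT NOR against 911, 647, 948 and 582 units in PLN NOR (3.31 ± 0.47). Notch3, a receptor of mural cells, was higher by 3.16 ± 0.43. Abcc9, a potassium channel subunit of pericytes, was lower (-2.70 ± 0.77) although FAT NOR 2 overlapped PLN NOR 1, with 39.3 and 189 units in FAT NOR against 176, 1007, 635 and 883 units in PLN NOR. Matrix genes were higher in 15 of 29 and lower in 1, median 1.29, but in 5 of 29 without FAT NOR 2. Dcn, the proteoglycan decorin (3.40 ± 0.60), Tnxb, a tenascin (4.57 ± 0.83), and Nid1 of basement membrane (2.36 ± 0.43) were higher, and Col1a1, type I collagen, had 322 and 621 units in FAT NOR against 1035 to 1776 units in PLN NOR (-1.51 ± 0.40).

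Preadipocyte and fibroblast markers were higher in 11 of 23 and lower in 3, median 1.37 (7 higher without FAT NOR 2). Mmp2, a gelatinase of fibroblasts (3.63 ± 0.64), and Klf15, a factor of fat cell differentiation (3.02 ± 0.56), were higher. The 3 lower genes were Thy1 (-3.40 ± 0.74), Dpp4 (635 and 132 units in FAT NOR against 2062 to 2723 units in PLN NOR) and Gata3 (-4.68 ± 0.79), which T cells also express. Mesothelial markers were higher in 6 of 8, median 3.21, but in 1 and 2 without FAT NOR 1 and without FAT NOR 2. Wt1, a transcription factor of mesothelium, had 761 and 603 units in FAT NOR and 14.9 to 184 units in PLN NOR (3.28 ± 0.90), and Upk3b, a uroplakin, had 819 and 343 units in FAT NOR and 13.9 to 340 units in PLN NOR (3.13 ± 1.07), its lower fat array just above PLN NOR 1.

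Erythroid and platelet genes were higher in 7 of 12 and lower in none (4 without FAT NOR 1), with a summed signal of 13890 to 15830 units in FAT NOR and 4216 to 5311 units in PLN NOR. Ppbp, a platelet chemokine, had 2237 and 1362 units in FAT NOR against 23.4, 7.69, 9.46 and 149 units in PLN NOR (6.28 ± 1.11). Alas2, of heme synthesis in red cells, was higher by 5.98 ± 0.93. Epithelial markers summed to 2927 to 6498 units in FAT NOR and 1509 to 4018 units in PLN NOR. Of 16, 5 were higher, led by the keratins Krt19 (4.25 ± 0.83) and Krt8 (4.18 ± 0.84), and 1 lower, Epcam (-2.60 ± 0.53). The median was 0.73, and 0.01 without FAT NOR 1. Krt19 is also a member of the mesothelial list and of the acinar and ductal list. Acta1, the actin of skeletal muscle, was among the 15 largest increases (7.36 ± 0.99). Of 15 muscle markers, 2 were higher, below the 17.1% of all genes, and 4 lower, above the 17% of all genes. Their median was -0.66, and 0.19 without FAT NOR 2. Their part in the differences was not tested.

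The genes furthest below the node were those of lymphocytes and of the vessels they enter by. Glycam1, a mucin of high endothelial venules that L-selectin binds, had 39.7 and 28.7 units in FAT NOR against 51028, 34915, 29866 and 59954 units in PLN NOR, a 1251-fold difference (-10.29 ± 0.35, adjusted p = 2e-08). Ighv14-2, an immunoglobulin heavy chain variable segment, had 22.6 and 11 units in FAT NOR and 5933 to 16267 units in PLN NOR (-9.18 ± 0.45). Cxcr4, a chemokine receptor of leukocytes, had 112 and 190 units in FAT NOR and 15018 to 20937 units in PLN NOR (-6.85 ± 0.32, adjusted p = 1.22e-07). Every node array lay far above both fat arrays for these genes.

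The rest of the 15 largest decreases were mostly leukocyte genes. Ptprc, the phosphatase CD45 of all leukocytes, fell by 6.84 on the log2 scale, Spn, the sialophorin CD43, by 7.19 on the same scale, and Kcnn4 is a potassium channel of activated T cells (-6.81 ± 0.38). The lymphocyte regulators Runx3 (-7.75 ± 0.50), Gfi1 (-7.34 ± 0.52) and Ikzf1 (-7.30 ± 0.42) and the NF-kB inhibitor Nfkbie (-7.99 ± 0.50) were as far below. Rnf157, a ubiquitin ligase (-8.08 ± 0.35), H1f4, a linker histone (-7.71 ± 0.89), BC147527 (-7.34 ± 0.60), Marco, a scavenger receptor of node macrophages (-7.01 ± 0.60), and Gpr171, a receptor of T cells (-6.91 ± 0.79), completed the set. Dimmer probe sets changed less: those of Rnf157 lay between -3.04 and 0.02, and those of Nfkbie, Ikzf1 and Marco at -3.25, -3.58 and -2.41.

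Of 18 genes of the T cell receptor complex and its coreceptors, 17 were lower and none higher, median -3.56, and all 18 had FAT NOR below PLN NOR without overlap, which 23.9% of all genes did. Cd3e, a CD3 chain of the receptor, had 112 and 36.3 units in FAT NOR against 5489, 8979, 7190 and 5156 units in PLN NOR, a 102-fold difference (-6.68 ± 0.44, adjusted p = 9.98e-07). Cd4, the coreceptor of helper cells, had 47.8 and 19.8 units in FAT NOR against 1420, 3786, 2293 and 2554 units in PLN NOR (-6.27 ± 0.49). Cd8a, of cytotoxic cells, fell less, with 389 and 293 units in FAT NOR against 2500 to 5574 units in PLN NOR (-3.59 ± 0.37), and its partner Cd8b1 by 5.56 on the log2 scale.

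Signalling downstream of the receptor followed, with 15 of 18 genes lower and 2 higher, median -2.99. Prkcq, the protein kinase C of T cells (-5.83 ± 0.50), Sla, an adaptor (-6.54 ± 0.39), and Fyb, an adaptor of integrin activation (-5.03 ± 0.44), were lower. Zap70, the kinase bound to the receptor, was lower on its brightest probe set (-4.76 ± 0.45) and higher on another (2.37 ± 0.48). Vav1, an exchange factor, counted as higher on its brightest probe set (1.60 ± 0.47), while its second had 6.69 units on average in FAT NOR against 1090 units in PLN NOR (-7.42 ± 0.62). Nfatc2, a factor of T cell activation, was the other gene counted as higher (1.72 ± 0.50).

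Transcription factors of lymphocytes were lower in 13 of 21 and higher in 3, median -1.85. Ikzf3 (-6.59 ± 0.35), Bcl11b of T cells (-6.44 ± 0.55), Pou2af1 of B cells (-5.95 ± 0.34) and Lef1 of naive T cells (-5.11 ± 0.33) were lower. Ebf1, known from B cells and from fat cell precursors alike, had 3026 and 4305 units in FAT NOR against 1067, 980, 1060 and 877 units in PLN NOR (1.86 ± 0.32). Id3 (1.85 ± 0.40) and Irf4 (1.75 ± 0.46) were the other two that were higher. Homing genes of naive and memory lymphocytes were lower in 10 of 15 and higher in none, median -2.96, with Ccr7, which guides them into nodes, at 10.9 and 55.8 units in FAT NOR against 1744, 3739, 3219 and 1568 units in PLN NOR (-6.60 ± 0.61).

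Regulatory T cell markers were lower in 7 of 12, median -2.24. Foxp3, their defining factor, which was chosen after its values were seen, had 294 and 68.2 units in FAT NOR against 684, 878, 686 and 592 units in PLN NOR (-2.31 ± 0.55, adjusted p = 0.00751). Izumo1r, a folate receptor of these cells, was lower by 4.65 on the log2 scale. Cytotoxic and NK markers were called in 3 of 19 only, near the background of 17% lower genes, with a median of -0.38 that was 0.13 without FAT NOR 2 and -0.89 without FAT NOR 1. These were Ccl5 (-5.39 ± 0.54), Ctsw (-3.17 ± 0.67) and Klrd1 (-3.02 ± 0.46). Cytokine receptor and Jak-Stat genes were lower in 8 of 20, such as Stat4, which transmits IL-12 signals (-5.07 ± 0.46). Il7r, the survival receptor of naive T cells, had 481 and 297 units in FAT NOR against 7324 to 12798 units in PLN NOR (-4.59 ± 0.34). Cish, an inhibitor of cytokine signalling, was the 1 higher gene (1.45 ± 0.38).

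B cell genes were lower in 17 of 23 and higher in 1, Ebf1, with a median of -3.18. Cd79a, of the B cell receptor, had 24.3 and 71.8 units in FAT NOR against 1647, 4372, 2310 and 1667 units in PLN NOR (-5.78 ± 0.53, adjusted p = 1.02e-05). Ms4a1, the antigen CD20, had 535 and 346 units in FAT NOR against 2556 to 4964 units in PLN NOR (-3.06 ± 0.36). Its other probe set had 48.8 units on average in FAT NOR against 6134 units in PLN NOR (-7.00 ± 0.36). Tnfrsf13c, the BAFF receptor (-5.48 ± 0.53), Cr2, a complement receptor (-4.05 ± 0.61), and Cd40 (-4.05 ± 0.36) were lower as well. Germinal centre markers were lower in 4 of 11. Of 14 plasma cell and immunoglobulin genes, 4 were lower and 3 higher: Ighm had 30.6 and 932 units in FAT NOR against 5452 to 6227 units in PLN NOR (-5.12 ± 0.90), Jchain fell by 2.32 on the log2 scale, and Xbp1, a factor of secretory cells in many tissues, had 11011 and 14885 units in FAT NOR against 798 to 2493 units in PLN NOR (3.08 ± 0.41).

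Of 15 MHC class II and presentation genes, 11 were lower and none higher, median -2.63, and 3 were lower with the actin ratio as a covariate. Cd74, the invariant chain, had 1352 and 1568 units in FAT NOR against 12284, 22272, 16416 and 11436 units in PLN NOR, a 10.3-fold difference (-3.37 ± 0.34). H2-Ab1, a class II chain, was lower by 3.21 on the log2 scale and Ctss, the protease that trims the invariant chain, by 3.96. MHC class I genes were lower in 7 of 14 (4 without FAT NOR 1), median -1.17, with Nlrc5, their transactivator, at -3.66 ± 0.36. B2m, the class I light chain, overlapped between tissues, with 20138 and 33940 units in FAT NOR against 32942 to 56313 units in PLN NOR (-0.72 ± 0.38, adjusted p = 0.166).

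Dendritic cell markers were lower in 7 of 17 and higher in none, median -1.26 (4 lower without FAT NOR 1). Ccl22, a chemokine of mature dendritic cells, had 45 and 104 units in FAT NOR against 770 to 1713 units in PLN NOR (-4.14 ± 0.50), and Irf8, a factor of their development, was lower by 3.22 on the log2 scale. Macrophage markers went both ways, with 6 of 27 higher and 8 lower, and a median of 0.04 that was -0.24 without FAT NOR 1. Lyz1, lysozyme, had 1813 and 1402 units in FAT NOR against 44942, 40381, 36329 and 56994 units in PLN NOR (-4.79 ± 0.32). Siglec1, the sialoadhesin of sinus macrophages (-5.91 ± 0.54), C1qb (-3.22 ± 0.33) and Csf1r (-2.27 ± 0.33) were lower. C1qb was also lower on a dimmer probe set (-1.86 ± 0.35) but not called on another (-0.01 ± 0.57). Csf1r was also lower on a dimmer one (-1.55 ± 0.41) and not called on another (0.91 ± 0.83). C1qa, of the same list, was not called (3.22 ± 1.46). Retnla, a product of alternatively activated macrophages and of fat, had 2763 and 2000 units in FAT NOR against 272, 257, 166 and 356 units in PLN NOR (3.21 ± 0.43), and Cd14 (2.62 ± 0.47), Adgre1, the antigen F4/80 (1.41 ± 0.46), and Apoe, which adipocytes make too (3.86 ± 0.67), were higher.

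Reticular stroma and its chemokines were lower in 9 of 14 and higher in 1, median -1.92. Cxcl13, which draws B cells into follicles, had 865 and 477 units in FAT NOR against 5779, 5694, 5826 and 7034 units in PLN NOR (-3.24 ± 0.32). Ltbr, the lymphotoxin receptor of stromal cells, was the higher one, with 1006 and 929 units in FAT NOR against 20.7, 12, 115 and 13.9 units in PLN NOR (5.27 ± 0.99). Markers of high endothelial venules were lower in 6 of 12, with a median of -1.85 that was -0.69 without FAT NOR 1, and higher in 1, the sialyltransferase St3gal6 (1.88 ± 0.41). Among the lower ones were the sulfotransferase Chst2 (-3.33 ± 0.40), the glycosyltransferase Gcnt1 (-4.05 ± 0.39) and the addressin Madcam1 (-2.05 ± 0.46). Lymphatic markers were lower in 5 of 12 and higher in 1, Itga2b, an integrin known from platelets (2.73 ± 0.75), with Lyve1, a hyaluronan receptor, at 108 and 156 units in FAT NOR against 649 to 2090 units in PLN NOR (-2.97 ± 0.51).

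The TNF pathway, a main inflammatory signal in fat, held genes of both directions. Of the ligands, Tnf had 79.3 and 31.7 units in FAT NOR against 337, 233, 234 and 382 units in PLN NOR (-2.53 ± 0.66, adjusted p = 0.0117). Lta had 42.2 and 41.5 units in FAT NOR against 229 to 752 units in PLN NOR (-3.23 ± 0.65). Tnf and Lta were chosen after their values were seen. Ltb, the membrane lymphotoxin, was lower by 5.12 on the log2 scale. Of the receptors, Tnfrsf1a, found on most cells, had 2059 and 3309 units in FAT NOR against 42.6, 580, 219 and 57.1 units in PLN NOR (4.30 ± 0.86, adjusted p = 0.00261), whereas Tnfrsf1b, the receptor of leukocytes, had 790 and 460 units in FAT NOR against 2708 to 5180 units in PLN NOR (-2.70 ± 0.37). Over the list, 2 of 18 were higher and 8 lower, median -1.27.

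Traf1, a signalling adaptor (-4.92 ± 0.44), and Birc3, an inhibitor of cell death (-3.33 ± 0.34), were lower. Tnfaip3, the ubiquitin editing enzyme A20, was lower on its brightest probe set (-2.43 ± 0.31) and higher on a dim one (3.40 ± 1.16). Among 12 subunits and inhibitors, 4 were lower and 2 higher. Rela, the p65 subunit, had 2062 and 2329 units in FAT NOR against 64.5, 280, 89.5 and 53.4 units in PLN NOR (4.51 ± 0.66), and Rel, the subunit of lymphocytes, had 213 and 174 units in FAT NOR against 359 to 795 units in PLN NOR (-1.47 ± 0.47). Interferon-stimulated genes were called 3 higher and 3 lower of 21, below the background in each direction.

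DNA replication and mitosis genes were lower in 17 of 29 and higher in none, median -1.72. Mcm6, of the replicative helicase, had 262 and 352 units in FAT NOR against 6171, 5046, 8828 and 7601 units in PLN NOR (-4.48 ± 0.33), and Mki67, a proliferation antigen, was lower by 4.31 on the log2 scale. Splicing factors were lower in 15 of 24 (8 without FAT NOR 1), such as Rbm39 (-3.33 ± 0.30) and Sf3b1 (-3.18 ± 0.37), while Srsf5 was higher (2.32 ± 0.55). Ribosome biogenesis was lower in 9 of 18, with nucleolin, Ncl, at -2.67 ± 0.29.

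Promoters were searched for motifs in all lists, as a description. A RefSeq promoter (250 bases before the start and 50 from it, GRCm38.p6) was at hand for 14452 of the 18193 genes, and 17 motifs were searched on both strands. The E2F element TTTGGCGC, bound by the factors that open S phase, was in 3 of 24 promoters of replication and mitosis genes (12.5%) against 0.934% of all. These 3 were Mcm3 (-2.13 ± 0.38), Mcm5 (-3.82 ± 0.51) and Mcm6, all lower in FAT NOR. The CCAAT-containing Y box CTGATTGG was in 3 of 10 promoters of class II genes (30%) against 5.87% of all, those of H2-Aa (-1.84 ± 0.45), H2-Eb1 (-2.81 ± 0.40) and H2-Oa (-3.18 ± 0.68). It was also in 5 of 15 branched-chain amino acid genes (33.3%), which were higher in FAT NOR, so the motif sits in promoters of both directions. Stretches of 100 bases are shown because these are the members of the replication and class II lists whose promoters hold the motif, 5′ to 3′ on the strand of the gene, with the motif or its reverse complement in capitals (in Mcm6, 1 of 2 matches).
Mcm3, chr1:20820263-20820362, minus strand: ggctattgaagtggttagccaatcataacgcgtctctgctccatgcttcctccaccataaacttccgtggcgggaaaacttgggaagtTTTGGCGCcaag
Mcm5, chr8:75109314-75109413, plus strand: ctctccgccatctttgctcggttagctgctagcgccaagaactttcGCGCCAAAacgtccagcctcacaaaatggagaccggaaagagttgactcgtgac
Mcm6, chr1:128359762-128359861, minus strand: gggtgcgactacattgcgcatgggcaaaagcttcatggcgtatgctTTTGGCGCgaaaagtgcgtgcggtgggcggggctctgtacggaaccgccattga
H2-Aa, chr17:34287821-34287920, minus strand: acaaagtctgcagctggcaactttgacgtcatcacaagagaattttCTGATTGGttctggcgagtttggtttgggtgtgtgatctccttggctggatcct
H2-Eb1, chr17:34305759-34305858, plus strand: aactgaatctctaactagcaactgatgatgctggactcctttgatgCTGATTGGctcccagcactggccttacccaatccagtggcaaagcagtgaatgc
H2-Oa, chr17:34092287-34092386, plus strand: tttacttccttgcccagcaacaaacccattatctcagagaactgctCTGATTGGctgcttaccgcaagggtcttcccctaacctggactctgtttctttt

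In the class II promoters the motif began 51, 62 and 46 bases before the annotated start, and in Mcm6 and Mcm5 110 and 149 bases before it. In Mcm3 it lay 39 bases after the start. Over all genes called higher and lower in FAT NOR, the shares were close to that of all promoters: 0.875% and 1.21% for E2F and 5.93% and 6.03% for the Y box. The interferon response element ISRE was in 9 of 16 promoters of interferon-stimulated genes (56.2% against 3.63% of all), a list in which 1 gene with the motif was called higher and 1 lower. The remaining motifs were the octamer ATGCAAAT (1.68% of all promoters), the ERR site TCAAGGTCA (0.401%), the C/EBP palindrome TTGCGCAA (0.27%), the Ets site ACCGGAAGT (1.81%), the CRE TGACGTCA (2.92%), the sequence TATAAA of the TATA box, the CCAAT box (42%), the Sp1 site GGGGCGGGG (20.3%), and those known as DR1, NRF1, lymphoid Ets, NF-kB, SRE and X box. CCAAT lies within the Y box on its opposite strand, and the motifs shown were chosen after their shares were seen. A match is a description and not a binding site.

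Immediate early genes, which respond within minutes to handling and to signals, were higher in 8 of 22 and lower in 7 (5 higher without either fat array). Fos had 2383 and 2200 units in FAT NOR against 306, 128, 254 and 450 units in PLN NOR (3.15 ± 0.49), and Egr1 had 7993 and 8115 units in FAT NOR against 2376 to 3725 units in PLN NOR. Egr2, which restrains T cell activation, had 21.5 and 161 units in FAT NOR against 3410, 3142, 3651 and 3572 units in PLN NOR (-5.87 ± 0.60). Egr3 was lower on its brightest probe set (-3.26 ± 0.52) and higher on another (3.24 ± 1.08). Clock genes were called in 5 of 16, close to the 34.1% of all genes, with Nr1d2 (2.27 ± 0.35), Per1 (1.98 ± 0.45) and Tef (1.63 ± 0.33) higher and Bhlhe40 (-2.71 ± 0.48) and Cry1 (-1.38 ± 0.40) lower. The time of day of sampling is not given, and the methods do not say whether the arrayed mice had been fasted or injected.

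Pancreatic genes were looked at because the nodes lie against the pancreas. Of 20 acinar and ductal genes, 3 were higher, Krt19 among them, and 5 lower in FAT NOR, against 17.1% and 17% of all genes. Their median was 0.71, with -0.54 without FAT NOR 1 and 1.49 without FAT NOR 2. Their summed signal was 2882 to 5323 units in FAT NOR and 1502 to 4290 units in PLN NOR. Pnliprp2, a pancreatic lipase, had 16.2 and 2.76 units in FAT NOR against 439, 338, 127 and 417 units in PLN NOR (-5.48 ± 0.95), and Cpa1, a carboxypeptidase, 11.1 and 4.95 units in FAT NOR against 104 to 194 units in PLN NOR (-4.33 ± 0.90). Cela1, an elastase known also outside the pancreas, ran the other way (4.83 ± 1.32). Among 16 islet genes, 3 were lower (1 without FAT NOR 2), near the 17% of all genes: Iapp, the amyloid peptide of beta cells, at 23.2 and 11.8 units in FAT NOR against 1271, 470, 407 and 1424 units in PLN NOR (-5.53 ± 0.68), Gcg, glucagon (-2.59 ± 0.90), and Gad1 (-2.39 ± 0.74). The other 3 probe sets of Iapp were not called (-0.30 to 1.69). Ins2, insulin, had 194 and 170 units in FAT NOR against 16.3 to 63.6 units in PLN NOR and did not pass (2.50 ± 0.92, adjusted p = 0.0551).

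**Figure D4:**
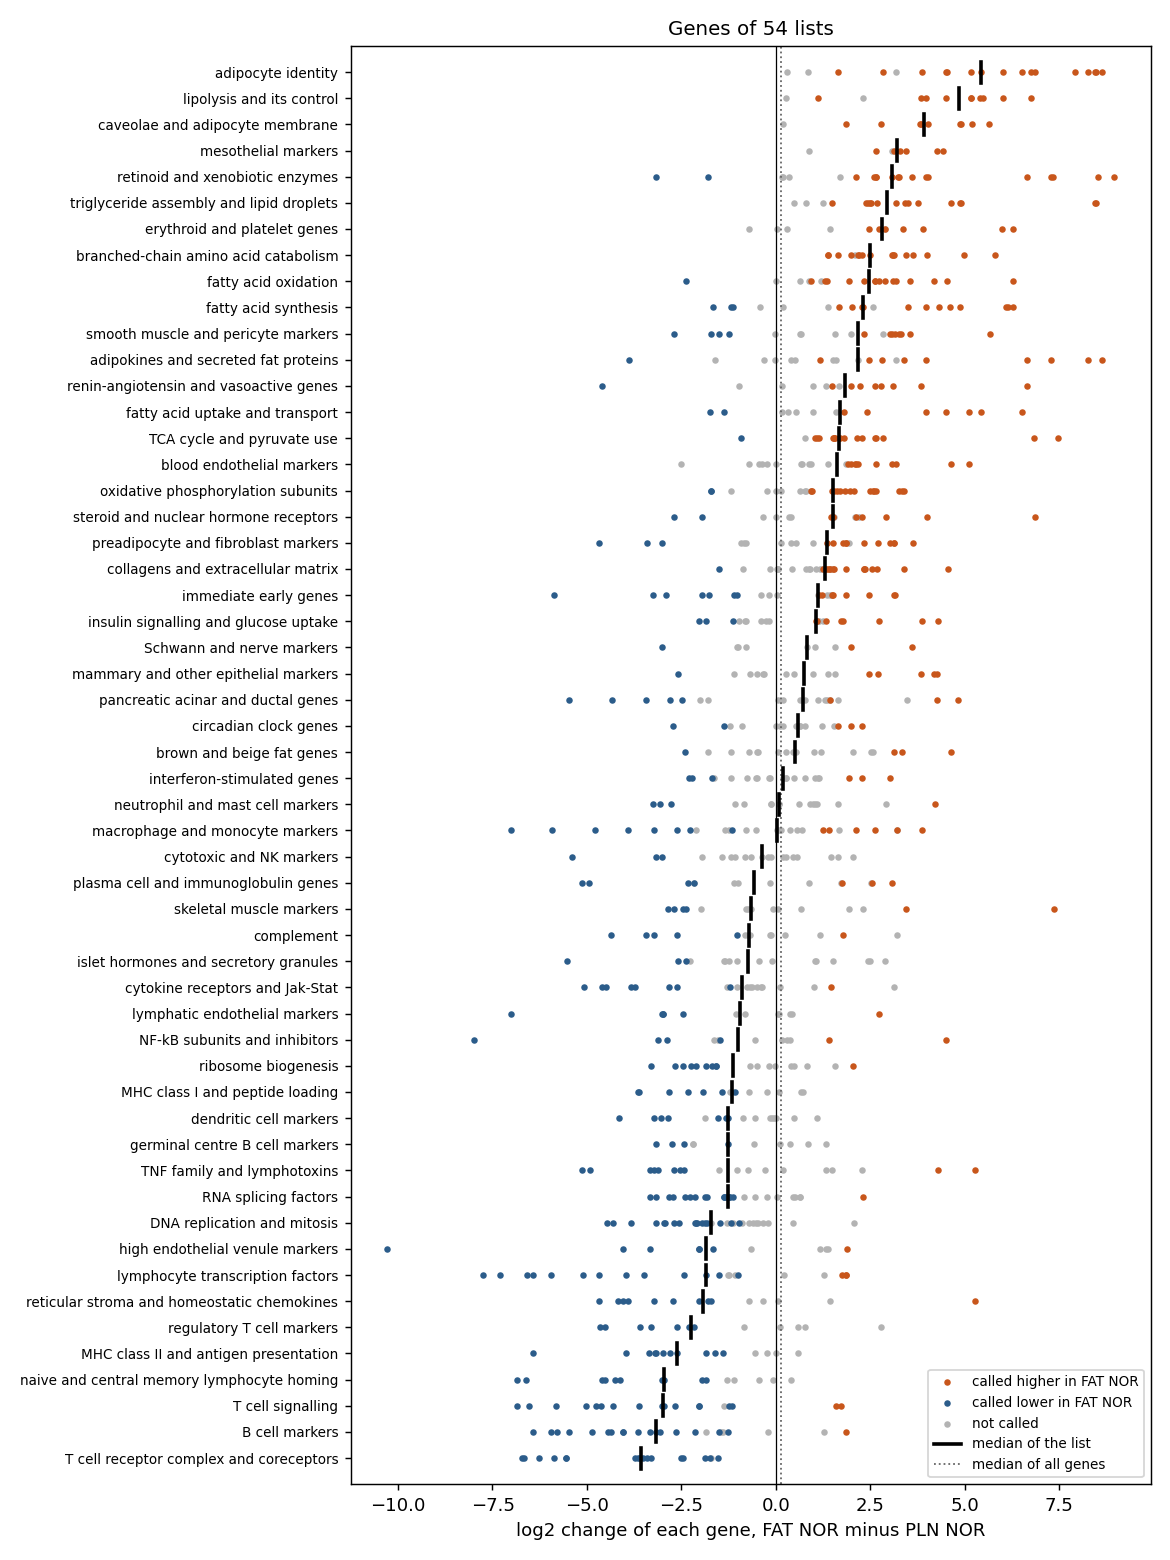
Log2 change (FAT NOR minus PLN NOR) of every measured gene in 54 lists, ordered by the list median (black bar). Orange points are genes called higher in FAT NOR, blue points genes called lower and grey points the rest; the medians run between 5.43 for adipocyte identity and -3.56 for the T cell receptor complex, and the dotted line marks the median of all genes, 0.15.

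The same tissue difference was measured between arrays that the comparison did not use. The calls do not rest on those arrays alone, because they come from a fit that takes its spread from all groups, NOR included. In 1 fit of all 19 arrays, 2130 genes (11.7%) were higher and 1381 (7.59%) lower in fat than in PLNs of DIA mice (2 arrays each), and 3864 (21.2%) and 2006 (11%) in AAT mice (2 fat and 4 PLN arrays). Of probe sets, 9.12% were higher and 8.52% lower in the DIA pair. In the AAT pair 8657 (19.2%) were higher and 4349 (9.66%) lower, but 4814 and 5499 after quantile normalization. Of the 3117 genes higher in FAT NOR, 1424 were also called higher in DIA fat (45.7% of the NOR list and 66.9% of the DIA list) and none lower. Of the 3091 lower genes, 1080 were also lower in DIA fat (34.9% and 78.2%) and 8 were higher. In AAT mice the shared genes were 2176 (69.8% and 56.3%) and 1536 (49.7% and 76.6%), with 2 and 12 in the opposite direction. The median change of all genes was 0.31 in the DIA pair and 0.70 in the AAT pair against 0.15 in the NOR pair, and list medians are to be read against these.

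Adipocyte identity genes were called higher in 16, 18 and 17 of 19 in the NOR, DIA and AAT pairs, with medians of 5.43, 6.39 and 4.62. Genes of the T cell receptor complex were lower in 17, 13 and 14 of 18, with medians of -3.56, -4.09 and -3.21. In both lists the NOR count is of the 6-array fit and the other counts are of the 19-array fit. B cell genes had medians of -3.18, -3.23 and -3.43. Retn had log2 changes of 8.62, 7.09 and 6.36 and Glycam1 of -10.29, -9.35 and -9.91 in the 3 pairs. Other lists were less steady: skeletal muscle markers had medians of -0.66, 0.29 and 2.07, high endothelial venule markers of -1.85, -1.16 and -0.03, and acinar and ductal genes of 0.71, -1.43 and -0.98. Single node arrays stood apart in the acinar and ductal genes. Their median log2 signal was 12.61 on PLN AAT 3 against 5.88 to 7.19 on the other PLN AAT arrays. On PLN DIA 1 and PLN DIA 2 it was 9.10 and 6.20. The part of these arrays in the change was not tested.

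**Figure D5:**
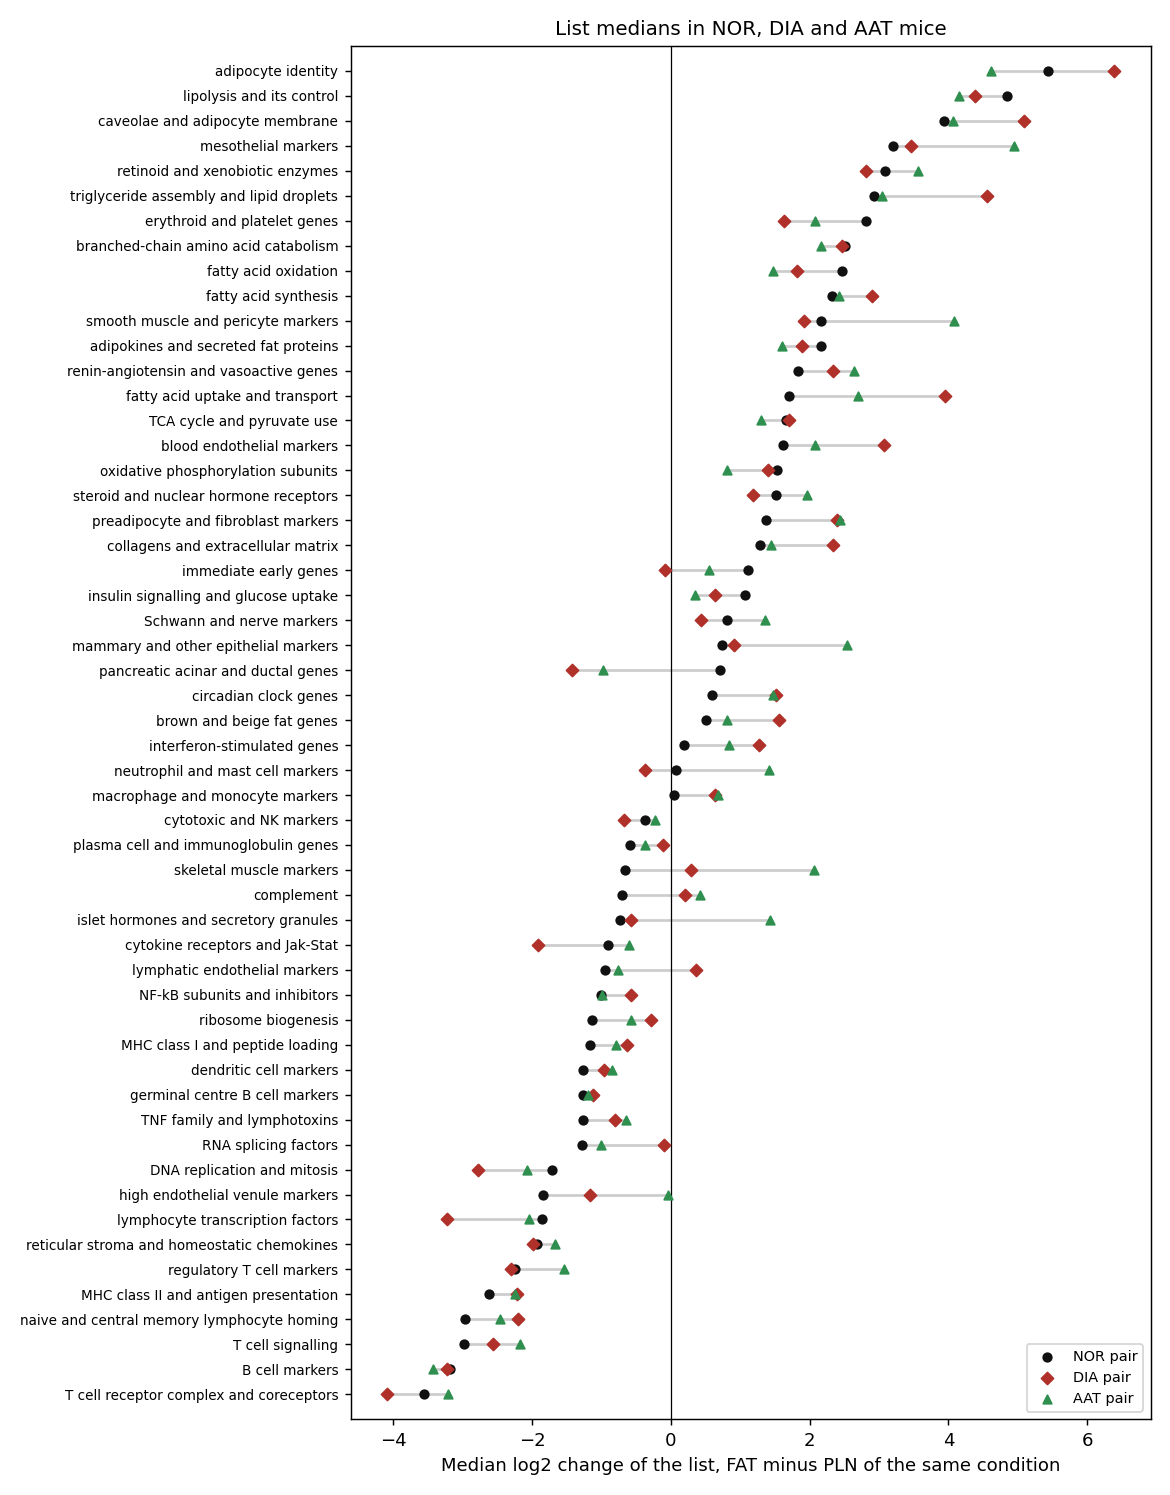
Median log2 change (fat minus PLN of the same condition) of 54 gene lists in NOR (black circles), DIA (red diamonds) and AAT mice (green triangles). Adipocyte identity genes lie at 4.62 to 6.39 and genes of the T cell receptor complex at -4.09 to -3.21, while the medians of muscle markers lie between -0.66 and 2.07.

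A change of the tissue difference itself was tested as an interaction. It passed for 2 probe sets of 45037 between the DIA and the NOR pair (0.00444%) and for 1 between the AAT and the NOR pair (0.00222%), while 3997 and 4596 had an unadjusted p under 0.05. The 2 were Hoxa9, a homeobox factor, with log2 changes of 7.29 in the DIA pair and 1.57 in the NOR pair (difference 5.73 ± 0.88, adjusted p = 0.0393), and Rfng, a glycosyltransferase of Notch, with 4.89 and -0.65 (difference 5.54 ± 0.88, adjusted p = 0.0393), both named after their values were seen. The third had no gene name in the table used. None of the other genes named here passed this test, which does not show that their tissue difference was alike in the 3 conditions.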

How the data were processed

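RNA of NOD mouse fat and PLNs was extracted with Trizol, amplified with WT-Ovation Pico (NuGEN) and measured on Affymetrix Mouse 430 2.0 arrays. The deposited values are MAS5 signals, probe set intensities on a linear scale, which the authors scaled to a 2% trimmed mean of 500 on every array. No source names the MAS5 version, and the methods of the study name RMA and rank products instead. Scaling of this kind makes changes relative to the rest of each array. The number of arrays limits the precision.

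Values under 1 were set to 1 (3 to 56 per array among the 6) and log2 was taken. The 64 control probe sets were left out, and 45037 were tested with limma 3.58.1 (lmFit, eBayes with trend) in R 4.3.3 on the 6 NOR arrays, with Benjamini-Hochberg adjustment and a threshold of 0.05. The pairs of DIA and AAT mice and the interactions were fitted on all 19 arrays. The steps were tested on simulated data. In GEO's platform annotation 34945 probe sets name 1 gene, 932 several and 9160 none, and 34741 symbols were updated through Entrez identifiers. Each gene took the probe set with the highest mean log2 signal over the 6 arrays. Gene lists numbered 55 with 1040 entries, of which 79 matched no gene and were not analysed here. One list is not reported here.

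Members and lists were chosen with earlier results of these data known. Genes named were the 15 with the largest called change in each direction whose arrays did not overlap and whose higher mean was at or above the median signal, in each list up to 6 with the smallest p, up to 3 with the highest mean and up to 3 called against the majority, the defining cell type markers, and genes whose promoters are printed. Alternatives covered normalization, filters, floor, probe set choice, the actin ratio and single arrays left out. Promoters were RefSeq sequences of GRCm38.p6.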

Additional observations from a re-analysis of the deposited data

Results flagged for a closer look

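Of 276 genes whose 4 PLN NOR signals were examined, 12 had 1 array far from the other 3 (Dixon's test), and chance alone flags about 5% of such groups. PLN NOR 2 was the distant array for Cd36 (1190 units), Slc7a10 (19.1 units), Insr (528 units), Il21r (2470 units), Birc3 (3320 units) and Gcg (48.3 units). PLN NOR 1 was the distant array for Slc2a4 (203 units), Jchain (4240 units) and Tnfaip3 (2540 units). PLN NOR 4 was the distant array for Nfkbie (21300 units), Kcnn4 (7710 units) and Cxcl13 (7030 units). The FAT NOR group, with 2 arrays, could not be examined in this way. None of the 276 genes had a tissue difference that changed between NOR and DIA or AAT mice by the interaction test.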

How the results depend on the processing

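The 14329 called probe sets became 8395 after a filter at the 60th percentile, 6337 with one probe set per gene, 5562 with the mean of a gene's probe sets and 5134 with the actin ratio as a covariate over 19 arrays. Leaving out single arrays gave 9317 (without FAT NOR 2) to 13852 (without PLN NOR 1), and 9841 without FAT NOR 1. With the replicate number as a block, 7930 were called, 3297 higher and 4633 lower. The labels do not say that equal numbers share an animal, and only 2 numbers are shared, whose deviations correlated at 0.172 and 0.111. With 2 fat arrays, crossed numbers give the same values with the sign turned (-0.172 and -0.111). These correlations therefore cannot settle whether the arrays are paired. The share of calls that were higher was 45.2%, against 40.1% after median centring, 31.4% without FAT NOR 1 and 34.7% without FAT NOR 2. At the study's thresholds, 18590 became 8967, 7677, 7088 and 11341 under those same 4 alternatives, and 15462 to 18664 with single arrays left out. Of 55 lists, 28 had a median above that of all genes, and 26 to 28 did with single arrays left out. Of 47 lists with at least 4 members called in their main direction, the count moved by over 1.5 times in 31 with the actin ratio as a covariate and in 16 with the replicate block, both tried on list counts after seeing the data. With the covariate, counts were 12 (against 16) for adipocyte identity, 9 (16) for branched-chain amino acid breakdown, 2 (15) for matrix, 8 (17) for the T cell receptor complex, 3 (11) for class II and 5 (17) for replication genes. Over the 19 arrays the actin ratio was 3.35 to 15.5 in fat and 0.881 to 2.31 in PLNs, without overlap. A fit with it therefore cannot separate RNA quality from tissue, and lost calls do not measure an effect of RNA quality. The Gapdh ratio was not used as a covariate.

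Some medians and genes turned direction, and the cause was not tested. Nerve markers were at -0.80 with filters at the 40th and the 60th percentile, and insulin signalling at -0.17 with the second of these. With the actin ratio as a covariate, blood endothelial markers were at -0.091, immunoglobulin genes at 0.26, dendritic cell markers at 0.32, Lep at -2.06, Insr at -0.34 and Cdh5 at -0.11. With single arrays left out, cytotoxic and NK markers were at -0.89 (without FAT NOR 1) to 0.13 (without FAT NOR 2), macrophage markers at -0.24 and acinar genes at -0.54 (both without FAT NOR 1), muscle markers at -0.84 (without PLN NOR 2) to 0.19 (without FAT NOR 2), Cdh5 at -0.24 (without FAT NOR 2) to 3.00 (without FAT NOR 1) and the log2 change of Pecam1 at -2.77 (without FAT NOR 2) to 1.36 (without FAT NOR 1). With the mean of probe sets, Acly was at 0.55, Ogdh at -1.01, Sdha at 0.18, Vav1 at -2.91 and Tnfaip3 at 0.49. Among the values of named genes under all alternatives, 4516 kept direction and side of the threshold, 345 lost the call, 16 gained it and 10 turned.

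In the DIA pair, 7944 probe sets were called, 5302 with only those 2 groups fitted, and 3594 (without FAT DIA 2) to 6243 with single arrays left out. In the AAT pair, 13006 were called, 7261 with only those 2 groups fitted, and 5779 (without FAT AAT 2) to 14402 with single arrays left out. The interactions gave 2 and 1 probe sets, and 0 to 323 (without PLN DIA 2) and 0 to 40 (without FAT NOR 2) with single arrays left out.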
